A study of Mus musculus with 3 samples.

Results

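Albumin and 9 other genes for plasma carrier proteins were examined for RXRα and RARα binding in mouse liver, namely Alb, Afp, Gc, Ttr, Serpina6, Ahsg, Fetub, Ambp, Itih1 and Itih4. They were taken by name as a set of related plasma proteins, with earlier results of these data known, and are 10 of 22367 protein-coding gene records of the GENCODE M1 annotation on NCBI37/mm9. ChIP-seq was performed on livers of male wild type C57BL/6 mice aged 3 months. One library came from chromatin precipitated with an RXRα antibody, 1 from chromatin precipitated with a RARα antibody, and 1 from input chromatin, which was not precipitated. All 3 carry the same genotype and no treatment is given. There were no replicates, so no test between libraries was possible and every value describes these libraries only. RXRα and input were each deposited as coverage in bins of 32 bp, worth 9.99983 M and 9.99895 M reads, and RARα as a list of 143280 scored peaks. The paper gives the number of uniquely mapped reads for RXRα and RARα. For RXRα that number is larger than the track holds, so read counts here are those of the track, not of the full library. Expression was not analysed here, so the liver label could not be checked against marker genes. Whole liver holds several cell types, and binding in more cells cannot be told apart from more binding per cell.

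RXRα is a nuclear receptor that binds DNA as the partner of many other nuclear receptors, and RARα, the receptor for retinoic acid, is one of these partners. Such pairs contact copies of a short half-site arranged as direct repeats, and the spacing between the copies differs among partners. Hepatocytes make most plasma carrier proteins, and they transcribe albumin at a very high rate in adult liver. Alpha-fetoprotein, encoded next to albumin, is the fetal counterpart and is largely silent in adult liver.

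Sequences under RXRα signal near these genes are given first, beginning with 5 chosen because they hold a direct repeat, and then 4 regions that hold none. A direct repeat was scored where 1 copy was the half-site AGGTCA or GGGTCA or one of the variants AGTTCA and also GGTTCA, the other copy was one of these or had at most 1 difference from AGGTCA, and 1 to 5 bases lay between them on either strand. Windows of 201 bp were centred on the bin with most RXRα reads in each region, a centring chosen after the data were seen. An RXRα region is a set of bins with at least 20 times the input signal, joined within 200 bp. The bin with most reads in a region need not itself reach that ratio. In the next 5 sequences capitals mark both copies of a repeat, and every one is written on the minus strand except that of Serpina6. The Itih1 sequence lies at chr14:31758187-31758247 and holds 2 exact copies of AGGTCA with a spacing of 2 bases (DR2). The Alb sequence lies at chr5:90886390-90886450 and holds a spacing of 1 (DR1). The Gc sequence lies at chr5:89877119-89877207 and holds 2 DR2, of which the first reads on the opposite strand. The Ambp sequence lies at chr4:62817903-62817963 and holds a DR3. The Serpina6 sequence lies at chr12:104898525-104898585 and holds a DR4.
Itih1, region at -1685 bp: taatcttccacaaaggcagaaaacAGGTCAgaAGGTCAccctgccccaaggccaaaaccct
Alb, region at -3515 bp: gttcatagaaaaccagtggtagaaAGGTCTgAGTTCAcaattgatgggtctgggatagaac
Gc, region at 9542 bp: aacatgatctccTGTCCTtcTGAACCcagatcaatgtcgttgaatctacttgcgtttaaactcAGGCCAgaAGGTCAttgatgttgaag
Ambp, region at -2263 bp: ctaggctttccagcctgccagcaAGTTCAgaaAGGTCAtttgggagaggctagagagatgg
Serpina6, region at -3138 bp: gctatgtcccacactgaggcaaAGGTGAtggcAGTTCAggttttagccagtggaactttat

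Other regions, some with a higher ratio, held no such repeat. The next 4 sequences are on the plus strand and are 101 bases around the bin with most RXRα reads, with any of the 4 half-sites in capitals. The region upstream of Alb had more RXRα reads in 1 bin than any other in the Alb-Afp locus (chr5:90876798-90876898), and the Afp region was the only one within 10 kb of the Afp start (chr5:90914814-90914914). Both held 0 half-sites, and the region at the Itih4 start held 1 (chr14:31699518-31699618). The region before Ahsg (chr16:22889150-22889250) had a ratio of 106.2 and held 0 half-sites.
Alb, region at -13147 bp: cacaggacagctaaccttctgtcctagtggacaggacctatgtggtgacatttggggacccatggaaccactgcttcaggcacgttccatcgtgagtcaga
Afp, region at -4924 bp: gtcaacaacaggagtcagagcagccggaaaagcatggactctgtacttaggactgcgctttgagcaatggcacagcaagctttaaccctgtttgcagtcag
Itih4, region at -126 bp: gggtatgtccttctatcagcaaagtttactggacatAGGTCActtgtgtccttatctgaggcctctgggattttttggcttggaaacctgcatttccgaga
Ahsg, region at -2851 bp: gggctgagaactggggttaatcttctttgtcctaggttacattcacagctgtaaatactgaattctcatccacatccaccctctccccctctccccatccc

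The albumin promoter is shown because the highest RARα score within 10 kb of the Alb start lay at its end. It is given on the plus strand (chr5:90889735-90889894), with capitals on CCAAT on either strand and on GTTAAT, which are letters of the motifs of NF-Y and HNF1 factors, respectively.
Alb, promoter: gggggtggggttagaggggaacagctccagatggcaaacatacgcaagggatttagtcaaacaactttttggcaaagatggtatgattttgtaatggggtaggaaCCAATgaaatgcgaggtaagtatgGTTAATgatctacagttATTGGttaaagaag

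Of the 10 genes, 9 had a RARα peak with a score above 20 and its summit within 10 kb of the gene start, against 52.2% of all protein-coding genes. Afp was the exception. An RXRα region lay within 10 kb of 10 of 10 starts, against 39.8% of all genes. A RARα peak and an RXRα region were counted as co-localized where they shared 25% or more of the narrower one, and this was found at 9 of 10, again without Afp, against 23.5% of all genes. At Alb it rested on a single bin with 13 RXRα reads where input had 0. Within 10 kb of the 10 starts lay 148 RARα peaks of any score, of which 64 scored above 20, against 32946 of 143280 in the whole list. The median score of the 64 was 36.5 against 33 for all such peaks of the genome. Abutting peaks were counted singly here, and 28 remained when they were merged. Of the 64 peaks, 22 overlapped an RXRα region. There were 40 RXRα regions, of which 22 overlapped a RARα peak scoring above 20, 31 a RARα peak of any score, and 9 none. The shares of all peaks and regions of the genome that overlap are not given here. Whether these overlap counts differ from the genome is therefore not known.

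The plot of both receptors around the 10 starts shows how differently the peaks were spread. RARα peaks scoring above 20 numbered 22 at Ahsg and 11 at Alb, 9 at Ttr, 8 at Gc, and 4 or fewer at each other gene. RXRα regions numbered 8 at Ahsg and 7 at Serpina6, 4 at Ttr, Gc, Ambp, Fetub and Itih1, 2 at Alb and Itih4, and 1 at Afp. A RARα summit with a score above 20 lay within 200 bp of the start at 7 of the 10 genes, against 33.2% of all genes. Of the 64 RARα peaks above 20, 11 had their summit within 1 kb of a start. Of the 40 RXRα regions 7 lay within 1 kb of the start, and 26 lay upstream of it. Of the 40 regions 28 lay outside any gene, 9 in an intron, 2 in a coding exon and 1 in an untranslated region. The shares of all peaks and regions of the genome at such positions are not given here. Whether the positions of these 64 peaks and 40 regions differ from the genome is therefore not known.

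**Figure D1:**
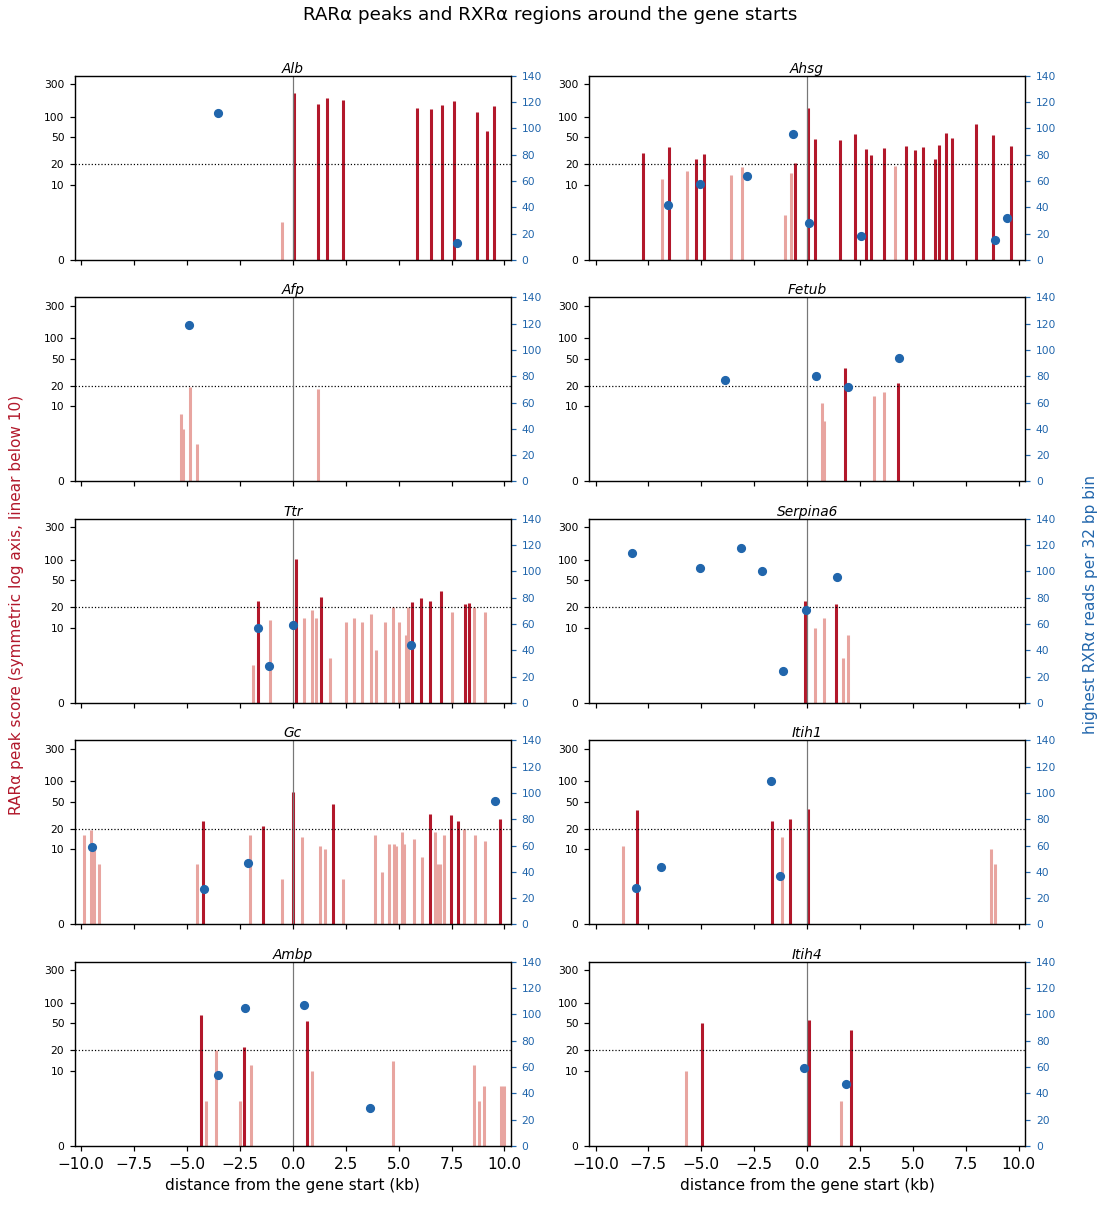
RARα peaks and RXRα regions within 10 kb of each gene start, drawn in the direction of transcription. Vertical red lines give the RARα peak score (left axis, symmetric log, pale where the score is 20 or less, dotted line at 20) and blue points the highest RXRα reads per 32 bp bin of each RXRα region (right axis). Alb and Ahsg carry rows of red lines after the start, while Serpina6 has 6 of its 7 RXRα regions upstream of the start and only 2 RARα peaks above 20.

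RXRα signal was also compared with input directly, as the ratio of the 2 depth-scaled signals with input taken as at least its genome mean. Over the gene bodies the median ratio of the 10 genes was 2.38, against 0.891 for 16526 genes of at least 5 kb. Within 1 kb of the start it was 5.50, against 1.37 for all genes. A body ratio of at least 2 was found at 6 of 10, against 15.8% of genes, and a ratio of at least 5 around the start at 6 of 10, against 11.2%. The lowest body ratio was 0.766 at Afp and the highest 4.67 at Fetub. Intervals given here are 95% intervals and cover counting error only.

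**Figure D2:**
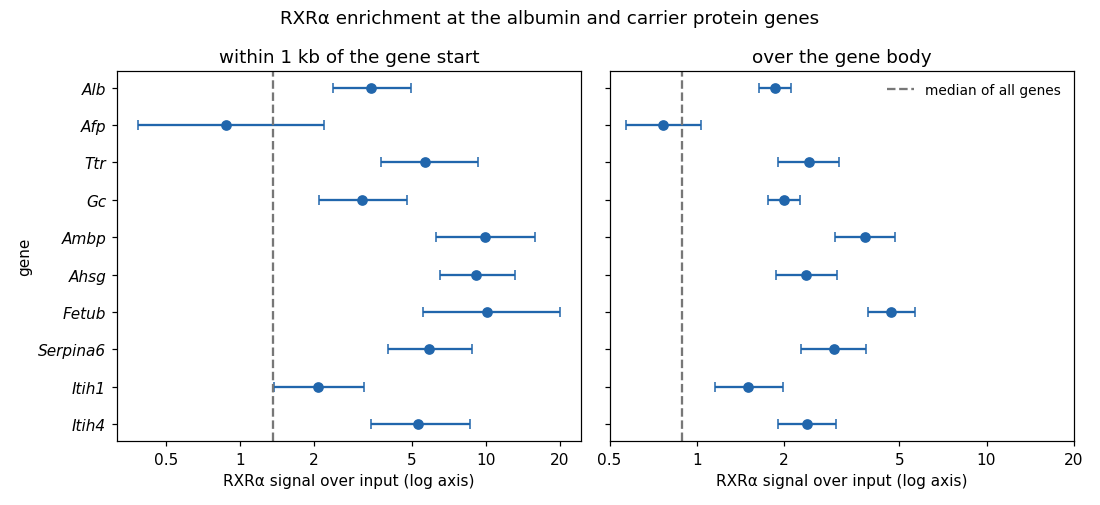
RXRα signal over input within 1 kb of the gene start (left) and over the gene body (right), on log axes. Points are the ratio at each gene, bars its 95% counting interval, and the dashed line the median of all genes, 1.37 at the left and 0.891 at the right. Afp is the gene whose interval spans the dashed line in both panels.

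Alb, the most abundant plasma protein and a carrier of fatty acids, bilirubin and drugs, lies at chr5:90889915-90905629 on the plus strand. Its body was overlapped by 16 RARα peaks, every one with a score above 20, with a median score of 145.5. They covered 95.1% of the 15715 bp body. Only 15 of 16526 genes, 0.0908%, were covered to at least 90%, and 2 of these were among the 10 genes, Alb and Ahsg. The peak at the start, with its summit at 30 bp in an untranslated region, scored 221, and 41 peaks of the genome scored higher. The peak at 13185 bp, in an intron near the end of the gene, scored 242, and 25 peaks of the genome scored higher. The other 14 scored 62 to 191, so none was near the threshold.

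Many of these peaks abut one another. When peaks of any score separated by at most 10 bp were joined, 14 peaks formed 1 stretch of 12950 bp. It began just upstream of the start, with a peak of score 5, and ranked 20 by length among 92167 stretches of the genome. A second stretch of 4850 bp with 4 peaks ran past the end of the gene and ranked 159. The RARα peaks at Alb thus ran almost without a gap along the gene.

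RXRα was also high along the whole body, at 11.9 times the genome mean, rank 122 of 16526 genes. Its ratio to input was modest. The Alb body held 705.6 RXRα reads against 379.4 input reads, a ratio of 1.86 (1.64 to 2.12). In 16 windows of 1 kb along the body RXRα ranged from 12.2 to 73.2 reads and input from 11.2 to 37.6, and the ratio ranged from 1.01 to 3.84. RXRα was thus above input in 16 of 16 windows, in 1 of them only barely. Of the 16 RARα peaks 4 co-localized with an RXRα region. The RXRα regions inside the body were single bins with 13 reads (6.9 to 22.2) and 14 reads (7.7 to 23.5) where input had 0. A ratio to 0 input reads was taken to the mean input of 0.603 reads per bin.

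The input library was itself high at Alb. Input over the body was 6.41 times the genome mean, rank 6 of 16526 genes. Across these genes the share covered by RARα peaks and the input level had a Spearman correlation of 0.625, and the share covered and the RXRα body ratio one of 0.655. Genes share the same 3 libraries and are not replicates, so these values are descriptions. The 15 genes covered to at least 90% had a median input of 3.57 times the genome mean. The part of the input level in the RARα coverage of Alb was not tested.

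**Figure D3:**
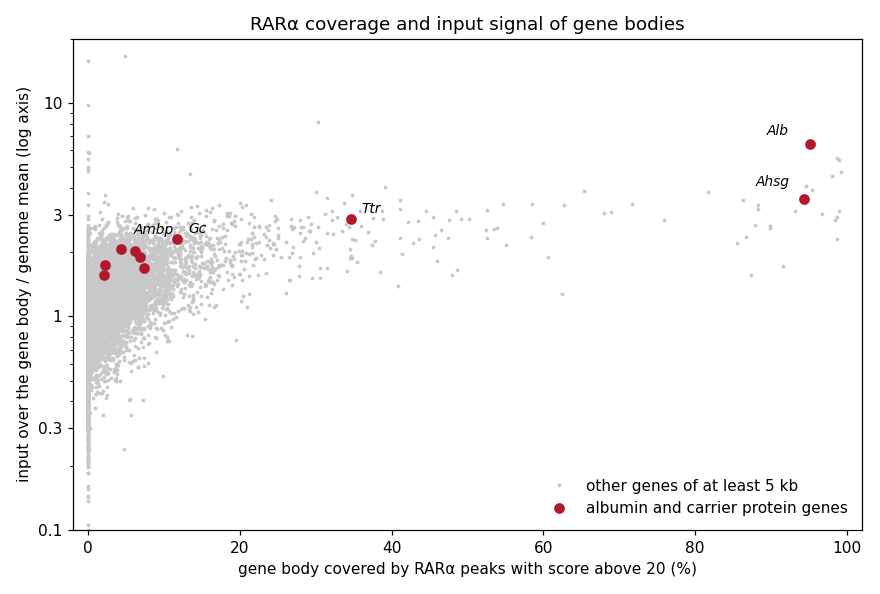
Share of each gene body covered by RARα peaks with a score above 20 (horizontal axis, %) and input over the body relative to the genome mean (vertical log axis) for 16526 genes of at least 5 kb, with the 10 genes in red. Alb at 95.1% and 6.41 and Ahsg at 94.4% and 3.57 lie at the right edge, Ttr at 34.6% and 2.85 between, and the other 7 below 12%.

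At the Alb start the bin with most RXRα reads lay at -139 bp, with 60 reads (45.8 to 77.2) against 6 input reads. That ratio of 9.999 did not reach the 20 required for a region. Within 1 kb of the start 139.6 RXRα reads stood against 41.0 input reads, a ratio of 3.40 (2.40 to 4.96). The region at -3515 bp had 112 reads (92.2 to 134.8) against 5, a ratio of 22.4 that only just passed, and no RARα peak overlapped it. Its DR1 is printed above.

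The stretch before Alb carried the RXRα bins with most reads in the locus. In the 50 kb upstream of the start 34.1 RXRα reads per kb stood against 10.02 input reads per kb, a ratio of 3.41 (3.08 to 3.77). There were 7 RXRα regions there, and 2 RARα peaks above 20, with scores of 30 and 34. The region at -13147 bp had 173 reads (148.2 to 200.8) in its highest bin against 4 input reads, rank 428 of 42117 RXRα regions. It overlapped the RARα peak of score 34. The region at -21531 bp had 131 reads (109.5 to 155.4) against 4, and its RARα peak scored 20, at the threshold but not above it.

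Beyond these 2, the region at -46331 bp had 65 reads (50.2 to 82.8) against 3, and that at -36091 bp 69 reads (53.7 to 87.3) against 4. The other 2 regions, at -35515 and -29451 bp, peaked at 41 and 29 reads. No RARα peak overlapped the regions at -36091, -35515 and -29451 bp. The window from -11 to -10 kb held 136.0 RXRα reads against 22.6 input reads, although no bin in it reached 20 times input. The ratio of RXRα to input was thus higher upstream of Alb than over its body, with intervals that did not overlap, while RARα scores were highest within Alb. In reads per kb RXRα was higher over the body, 44.9, where input was 24.1.

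**Figure D4:**
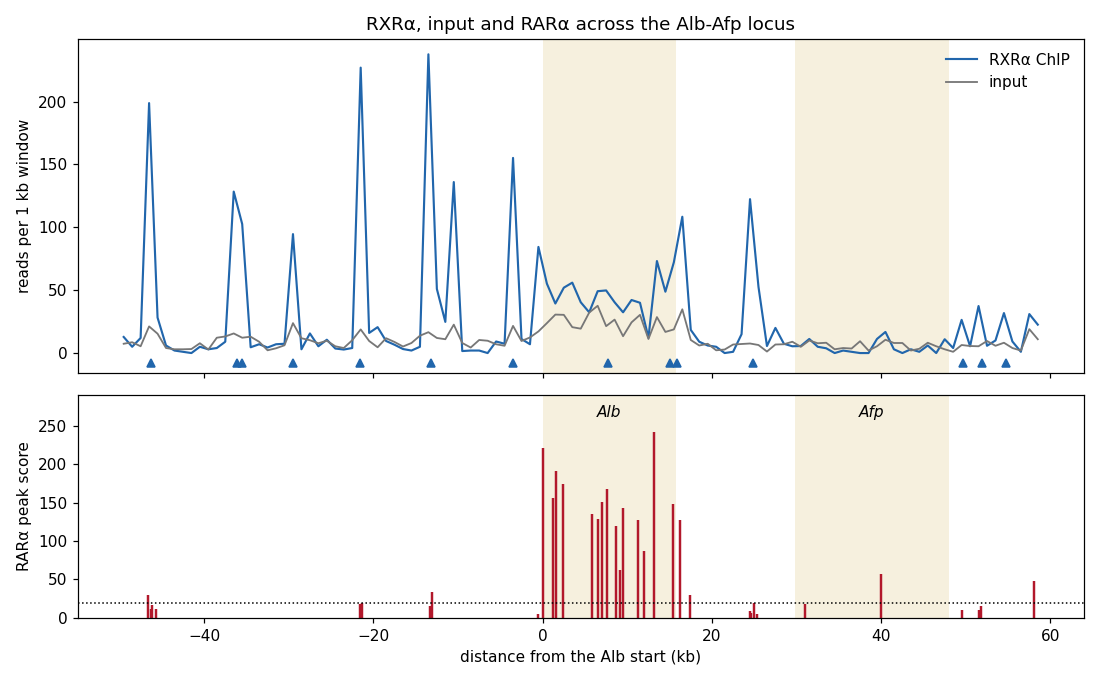
RXRα and input reads per 1 kb window (top) and RARα peak scores at their summits (bottom, dotted line at 20) against distance from the Alb start, with the gene bodies shaded and RXRα regions as triangles. The highest RXRα window, with 237.6 reads, starts at -14 kb, RARα scores of 62 to 242 fill Alb, and the Afp body has fewer RXRα than input reads over its length as a whole.

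Between Alb and Afp, over 14110 bp, 28.7 RXRα reads per kb stood against 8.67 input reads per kb, a ratio of 3.31 (2.70 to 4.10). Most of the reads lay at 2 places. The window from 16 to 17 kb after the Alb start, just past the gene, held 108.4 RXRα reads against 34.8 input reads. It lies next to an RXRα region of 22 reads at 15893 bp and within the RARα peak of score 128, and a RARα peak of score 30 follows it. The other place was the region at -4924 bp from the Afp start, where 2 windows held 122.4 and 52.6 RXRα reads against 7.6 and 6.4, and whose highest bin had 119 reads (98.6 to 142.4) against 5. The RARα peak overlapping it scored 19, just under the threshold, and its RXRα enrichment was 25.5. In the 10 kb after Afp the ratio was 2.45 (1.84 to 3.32), with 3 RXRα regions and 0 RARα peaks above 20.

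Afp, the fetal serum carrier, lies at chr5:90919740-90937933 on the plus strand and had the lowest RXRα ratios of the 10 genes over the body and within 1 kb of the start. Farther out this did not hold, since its region at -4924 bp had as many reads as any within 10 kb of the 10 starts. Its body held 82.0 RXRα reads against 107.0 input reads, a ratio of 0.766 (0.568 to 1.03). Within 1 kb of the start there were 11.8 RXRα reads and 13.4 input reads, and no bin had more than 3 RXRα reads. RARα peaks covered 2.09% of the body. The only RARα peak above 20 was at 10185 bp in an intron, with a score of 57, just beyond the 10 kb limit. Within the limit the highest score was 19. Alb, whose start lies 29825 bp away, had 221 at its start.

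Gc encodes the vitamin D-binding protein, a further member of the albumin family, and lies at chr5:89846549-89886790 on the minus strand. Its 40242 bp body was overlapped by 69 RARα peaks, of which 12 scored above 20. Peaks above 20 covered 11.7% of the body and peaks of any score 55.1%. The highest score, 69, lay at 25 bp in an untranslated region. Most RARα peaks over Gc thus scored 20 or less, as did most peaks of the whole list, where 32946 of 143280 scored above 20. Over Alb all 16 scored above 20. The body held 698.8 RXRα reads against 349.8 input reads, a ratio of 1.998 (1.75 to 2.28), and input was 2.31 times the genome mean.

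The strongest RXRα signal near the Gc start lay in the first part of the gene. The region at 9542 bp, in an intron, had 94 reads (76.0 to 115.0) against 4 and overlapped a RARα peak of score 28. Of the 2 DR2 printed above, 1 overlaps the edge of this region and the other lies beside it. The other 3 RXRα regions within 10 kb lay upstream, at -2138, -4202 and -9482 bp, with 47, 27 and 59 reads. Around the start 102.6 RXRα reads stood against 32.6 input reads, a ratio of 3.15 (2.09 to 4.77), close to that of Alb.

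Ttr, a carrier of thyroxine and of the retinol-binding protein, lies at chr18:20823751-20832825 on the plus strand. It had 28 RARα peaks of any score within 10 kb, of which 9 scored above 20. The peak at 164 bp, in an untranslated region, scored 104, and 935 peaks of the genome scored higher. The other 8 scored 22 to 35. Peaks above 20 covered 34.6% of the body, rank 82 of 16526 genes, and peaks of any score 91.5%, so the choice of threshold weighs heavily at this gene. One joined stretch of 18 peaks of any score ran for 6860 bp and ranked 84 of 92167.

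RXRα at Ttr was highest at the start and in 1 region upstream of it. The region at the start had 59 reads (44.9 to 76.1) against 6 in its bin with most reads and overlapped the RARα peak of score 104. It passed 20 times input in another bin, with 38 reads against 1. The region at -1655 bp had 57 reads (43.2 to 73.9) against 1 and overlapped a RARα peak of score 25, whose RXRα enrichment was 19.3. The 5 RARα peaks above 20 from 6049 to 8319 bp, all in introns, had RXRα enrichments of 0.0950 to 1.11. A weaker RARα peak among them, at 7529 bp with a score of 17, had 1.91. Over the body the ratio was 2.44 (1.91 to 3.10), with input at 2.85 times the genome mean, and around the start it was 5.69 (3.74 to 9.34).

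Serpina6 encodes the corticosteroid-binding globulin and lies at chr12:104884840-104895422 on the minus strand. It had the RXRα region with the highest single-bin ratio within 10 kb of the 10 starts and, apart from Afp, the lowest top RARα score there. The region at -3138 bp had 118 reads (97.7 to 141.3) in its highest bin where input had 0, which gave a ratio of 195.8, rank 90 of 22367 genes. It was 576 bp wide and held the DR4. The regions at -2146, -5042 and -8290 bp had 100, 103 and 114 reads against 4, 4 and 5 input reads, and that at -1154 bp had 24 against 1. No RARα peak of any score overlapped these 5 regions. They made up 5 of the 9 RXRα regions without a RARα peak near the 10 genes.

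The other 2 RXRα regions of Serpina6 co-localized with its only RARα peaks above 20. The peak at -83 bp scored 25, with 71 RXRα reads (55.5 to 89.6) against 3. The intronic peak at 1377 bp scored 22, with 96 reads (77.8 to 117.2) against 0, and its RXRα enrichment of 81.8 was the highest at any RARα peak above 20 near the 10 genes. RARα score and RXRα signal thus did not follow each other here. The body ratio was 2.97 (2.28 to 3.84), that around the start was 5.89 (4.0 to 8.79), and input was 2.02 times the genome mean.

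Ahsg, or fetuin-A, an inhibitor of calcium phosphate precipitation, lies at chr16:22892115-22899511 on the plus strand. Its profile was the most like that of Alb among all genes of at least 5 kb, by distance over the share covered by RARα peaks and the log2 RXRα body ratio, each divided by its SD, followed by Clec2d and Cps1. RARα peaks above 20 covered 94.4% of the body, rank 13 of 16526. The peak at 30 bp scored 134, and the other 14 in the body 24 to 79. A joined stretch of 22 peaks of any score ran for 11790 bp and ranked 27 of 92167. Input over the body was 3.57 times the genome mean, rank 29.

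In contrast to Alb, Ahsg also carried many RXRα regions, with 8 within 10 kb, and 7 of its 22 RARα peaks above 20 co-localized with one. A region needs 20 times the local input, and input over the body was 6.41 times the genome mean at Alb against 3.57 at Ahsg. The part of input in this contrast was not tested. The region at -691 bp had 96 reads (77.8 to 117.2) against 3. The region at -2851 bp had 64 reads (49.3 to 81.7) against 0, a ratio of 106.2, and the 2 regions farther upstream had 58 and 42 reads. Around the start 337.8 RXRα reads stood against 37.0 input reads, a ratio of 9.13 (6.49 to 13.2), above the interval for Alb. Over the body the ratio was 2.37 (1.88 to 3.05), and its interval overlapped that of Alb.

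Fetub, or fetuin-B, a protease inhibitor needed for fertilization, lies at chr16:22918455-22939839 on the plus strand, with its start 26340 bp from that of Ahsg. It had 2 RARα peaks above 20, with scores of 36 at 1790 bp and 22 at 4300 bp, both in an intron and both co-localized with RXRα. RARα peaks covered 7.29% of its body against 94.4% at Ahsg. The RXRα ratio to input went the other way, at 4.67 (3.89 to 5.68) over the body, which lies above the interval for Ahsg. The RXRα signal before division did not, at 7.91 times the genome mean at Fetub and 8.47 at Ahsg. Input was 1.69 times the genome mean at Fetub and 3.57 at Ahsg. Within the Fetub body the RXRα signal lay mostly in the first part. When the body was cut into 10 equal bins, the first had 38.9 times the genome mean of RXRα and 2.77 times that of input. Bins 4 to 10 had 0.272 to 2.85 times the genome mean of RXRα.

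The 4 RXRα regions of Fetub had 77 reads at -3879 bp, 80 at 441 bp, 72 at 1913 bp and 94 at 4361 bp. Input in the same bins had 1, 3, 4 and 4 reads. No RARα peak overlapped the first. Around the start 121.0 RXRα reads stood against 12 input reads, a ratio of 10.1 (5.57 to 20.1), the highest of the 10 genes by its point value, although its interval overlapped those of Ttr, Serpina6, Ahsg, Ambp and Itih4.

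Ambp encodes a precursor that is cleaved to alpha-1-microglobulin, a heme-binding carrier, and bikunin, a protease inhibitor. It lies at chr4:62804309-62815833 on the minus strand. The RARα peak at 678 bp scored 53 and had an RXRα enrichment of 21.8, and the RXRα region there had 107 reads (87.7 to 129.3) against 4. The RARα peak at -2332 bp scored 22, with an RXRα enrichment of 20.6, and overlapped the 544 bp wide region with 105 reads (85.9 to 127.1) against 3 that holds the DR3. The highest RARα score, 66 at -4337 bp, had an RXRα enrichment of 1.45 and no RXRα region. The highest RARα score and the strongest RXRα signal thus lay at different positions. The ratio around the start was 9.95 (6.29 to 15.9), and over the body it was 3.81 (3.00 to 4.85).

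Itih1 and Itih4 encode heavy chains of the inter-alpha-trypsin inhibitor family, and Itih1 is linked to bikunin in plasma. Itih1 lies at chr14:31742366-31756475 on the minus strand. Its RARα peak at 60 bp, in a coding exon, scored 39 and held no RXRα region. The RARα peak at -1660 bp scored 26, with an RXRα enrichment of 19.4, and overlapped the region with 109 reads (89.5 to 131.5) against 3, where the exact DR2 lies. Of the 4 RARα peaks above 20 within 10 kb, that at -8030 bp is nearer to another start. Nek4, whose start lies 8172 bp from that of Itih1, had 1 of these 4 RARα peaks, 1 weaker RARα peak with a score of 11 and 1 of the 4 RXRα regions within 1 kb of its own start. Within 1 kb of the Itih1 start 75.0 RXRα reads stood against 36.2 input reads, a ratio of 2.07 (1.38 to 3.19), and over the body it was 1.502 (1.15 to 1.99). These were the lowest ratios after those of Afp.

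Itih4 lies at chr14:31699662-31715167 on the plus strand. The RARα peak at 83 bp scored 56 and the intronic peak at 2088 bp scored 39, and both co-localized with RXRα. The RXRα region at the start had 59 reads (44.9 to 76.1) against 1, and that at 1858 bp had 47 reads (34.5 to 62.5) against 2. The third RARα peak, at -4977 bp with a score of 51, lay in an untranslated region of the neighbouring gene Mustn1 and had an RXRα enrichment of 1.03. The ratio around the start was 5.32 (3.43 to 8.63), above the interval for Itih1, and over the body it was 2.39 (1.91 to 3.02).

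Set side by side, the 10 genes fell in different orders by RARα coverage and by the RXRα ratio to input. These measures are unlike, since RXRα was divided by input and RARα coverage was not. By the share of the body covered by RARα peaks above 20 the order was Alb, Ahsg, Ttr, Gc, Fetub, Itih4, Serpina6, Ambp, Itih1 and Afp, from 95.1% to 2.09%. By RXRα body ratio it was Fetub, Ambp, Serpina6, Ttr, Itih4, Ahsg, Gc, Alb, Itih1 and Afp. The intervals of neighbours in the second order overlapped from Fetub down to Itih1, while that of Afp, up to 1.03, lay below that of Itih1, from 1.15.

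Of 30 other plasma protein genes listed for comparison, such as the alpha-1-antitrypsin, haptoglobin and transferrin genes, 27 had a RARα peak above 20, 29 an RXRα region and 23 a co-localized peak within 10 kb. Apoh was the one without an RXRα region. A body coverage of at least 90% was reached by 2 of the 22 that are at least 5 kb long, Hpx with 91.6% and Serpina3k with 99.3%. A body ratio of at least 2 was found at 16 of these 22, and a ratio of at least 5 around the start at 19 of 30. The difference between these counts and those of the 10 genes was not tested.

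Direct repeats with a spacing of 1 to 5 bases were found in 7 of the 40 RXRα regions of the 10 genes (17.5%), against 13% of all 42117 RXRα regions and 4.15% of windows 2 kb to the side of these. DR1 was found in 3, DR2 in 2, DR3 and DR4 in 1 each, and DR5 in 0. Among all regions DR1 was found in 5.67%, DR2 in 2.41%, DR3 in 1.43%, DR4 in 2.45% and DR5 in 2.06%. Besides the printed ones, a DR1 lay in the Serpina6 region at -1154 bp and another beside the Ambp region at 3625 bp. At least 1 half-site in a window of 101 bp around the centre was found in 14 of 40 (35.0%), against 49.4% of all regions and 21.3% of windows to the side. These matches are descriptions, and 40 regions are few for reading a share.

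In the 250 bases before the start, CCAAT on either strand was found at 7 of the 10 genes, against 35.0% of all protein-coding genes. GTTAAT on either strand was found at 4, Alb, Afp, Gc and Itih1, against 5.75%. TATAAA in the last 60 bases was found at 3, Afp, Fetub and Serpina6, against 3.41%. The promoters of the 10 genes had 36.0 to 50.8% G and C and 1 to 5 CpG, against medians of 54.0% and 8 for all genes. Alb and Afp thus had both CCAAT and GTTAAT before their starts, while their top RARα scores within 10 kb of the start were the highest and the lowest of the 10.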

How the data were processed

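The authors aligned ChIP-seq reads with Bowtie and called peaks with MACS. The paper's methods name mm10 for alignment and NCBI37/mm9 for annotation, and the signal headers name mm9, so NCBI37/mm9 was used. The RXRα and input tracks that the authors deposited hold a signal, namely whole-number coverage by extended reads in 32 bp bins, where 1 read covers 5 bins. For RARα the deposited list gives a score per peak and a false discovery rate in percent, by which no peak was removed. The paper's methods put the background threshold at 20 times the input signal. Whether the deposited score is that fold is not stated in the sources used here. The tracks correspond to 9.99983 M RXRα reads and 9.99895 M input reads. The paper reports more uniquely mapped reads than this for RXRα. How the tracks came to nearly equal totals is not stated in the sources used here.

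Settings followed the paper's methods where it states them, namely a score above 20, a distance of 10 kb, 20 times input and an overlap of 25%. An RXRα peak list was not used here. RXRα regions were bins at least 20 times the larger of local and mean input after scaling to the same mean, joined within 200 bp. Intervals of ratios are exact binomial and those of single bins exact Poisson, at 95%, and treat track reads as independent molecules. The 10 genes, the 30 comparison genes and the 3 genes closest to Alb by body coverage and RXRα ratio were named by a rule, as were neighbours with a counted peak or region within 1 kb of their start. Genes and lists were chosen with earlier results of these data known. Region calling and overlap were tested on simulated data. Alternatives changed thresholds, distances, overlap, joining and merging. Promoters and windows were read from the NCBI37 genome. Scripts used scipy 1.17.1, numpy 2.4.6, pysam 0.24.0, pandas 2.3.3 and matplotlib 3.10.9 under Python 3.11.15.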

Additional observations from a re-analysis of the deposited data

How the results depend on the processing

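Of 47 alternatives, 35 left the value within set limits, and 12 moved it. The limits were 1.5 times the main value, or for the median RXRα body ratio a range of 1.90 to 3.03. That range averages the interval bounds of the middle genes and is not an interval of the median. The median body ratio was 2.03 without the first 1 kb of each body, against 2.38. The number of RARα peaks within 10 kb was 115 at a score above 10, 22 above 50 and 148 with no score threshold, against 64. It was 11 within 1 kb, 118 within 50 kb and 28 when abutting peaks were merged. RXRα regions numbered 78 at 10 times input, 66 with mean input alone, 7 within 1 kb and 90 within 50 kb, against 40. Within 1 kb, 6 of the 10 genes had an RXRα region, without Alb, Afp, Gc and Itih1. At a score above 50, 6 genes had a RARα peak within 10 kb, without Afp, Fetub, Serpina6 and Itih1. At that score 5 genes had a co-localized RARα peak, without Afp, Gc, Fetub, Serpina6 and Itih1. At 30 times input, 9 genes had an RXRα region, without Alb, and 8 had a co-localized RARα peak, without Alb and Afp. The shares of all genes at these changed settings are not given here, so these counts cannot be set against the genome. The Alb region at -3515 bp passed with a ratio of 22.4, and the Afp peak missed with a score of 19. No paired analysis was possible because each antibody had 1 library and no result came from a test. Counts of 0 to 6 input reads per bin limit the single-bin ratios, since the highest-ratio bin had 0 input reads in 18 of 40 regions. No sample could be left out.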
